A study of Mus musculus with 31 samples.

Results

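A set of 9 genes that mark T and B lymphocytes was followed through the kidneys of cystic and wild-type mice. They were the CD3 chains Cd3e, Cd3d and Cd3g, the coreceptors Cd4 and Cd8a, the B-cell antigen receptor chains Cd79a and Cd79b, the B-cell surface protein gene Ms4a1 (CD20) and the cytotoxic protease gene Gzmb. They were chosen by symbol, and all 9 were among the 23509 genes of the count tables. Of these tables, 15185 genes passed the filter on low counts, and 8 of the 9 markers did so. Gzmb did not, with 1 to 8 counts in each library.

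Whole-kidney polyA RNA was sequenced from 31 mice harvested at 30 weeks of age. Of these, 12 were Pcy/CD1 given PBS, 14 were Pcy/CD1 given RGLS4326 subcutaneously at 25 mg/kg monthly from 5 weeks of age for 25 weeks, and 5 were untreated male wild-type CD1 mice. Pcy/CD1 mice carry a recessive mutation and develop cystic kidneys on the CD1 background that all 3 groups share. RGLS4326 is a short oligonucleotide complementary to the seed of miR-17. The wild-type mice received no injection and, per the study's methods, came from another supplier than the Pcy/CD1 mice, so genotype, injection and source cannot be told apart in any comparison with them. The labels give the PBS schedule as weekly in one place and monthly in another. Each library was taken as a separate mouse, although the study's figure legend gives fewer mice per group for its RNA-seq of this model.

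T cells recognise antigen through a receptor whose signal is carried into the cell by the CD3 chains. CD4 and CD8 mark the helper and the cytotoxic branch, and on conventional cytotoxic T cells CD8 is a pair of an alpha chain (Cd8a) and a beta chain (Cd8b1). CD79A and CD79B do for the B-cell receptor what CD3 does for the T-cell receptor, and CD20 is carried by B cells from the precursor stage until they become plasma cells. Both lineages are sparse in a healthy kidney and gather in the interstitium in chronic kidney disease. In whole-kidney RNA, more cells of a type and more RNA per cell cannot be told apart.

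RGLS4326 acts on the miR-17 family, so 6 mature members are shown with the shared seed, bases 2 to 8, in capitals (RefSeq, GRCm38.p6). All 6 have the seed AAAGUGC.
mmu-miR-17-5p: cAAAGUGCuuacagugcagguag
mmu-miR-20a-5p: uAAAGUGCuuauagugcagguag
mmu-miR-20b-5p: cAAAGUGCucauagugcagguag
mmu-miR-93-5p: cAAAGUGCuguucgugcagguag
mmu-miR-106a-5p: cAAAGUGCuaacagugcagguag
mmu-miR-106b-5p: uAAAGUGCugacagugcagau
The longest annotated 3′UTR of each of the 9 markers (GENCODE vM21, 363 to 2306 bases) held 0 matches to this seed. Over the 13840 tested genes with an annotated 3′UTR, 14.5% held at least 1, and their median 3′UTR of 1312 bases was longer than the markers' 791. The absence of these letters says only that this match is not in these annotated stretches.

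The 3 CD3 genes lie together on chromosome 9 within 40056 bases. Cd3g (chr9:44969572-44980431, minus strand) and Cd3d (chr9:44981786-44987339, plus strand) point away from each other with starts 1355 bases apart, and Cd3e lies beyond them (chr9:44998740-45009627, minus strand). An annotated antisense gene, Gm48719, overlaps exons of Cd3e and is not a row of the count tables. Whether the authors counted by strand is not given in the sources used here. Cd8a (chr6:71373427-71379173, plus) and Cd4 (chr6:124864692-124888221, minus) lie on chromosome 6, Cd79a on chromosome 7 (chr7:24897381-24902197, plus), Cd79b on chromosome 11 (chr11:106311341-106314762, minus), Gzmb on chromosome 14 (chr14:56258838-56262260, minus) and Ms4a1 on chromosome 19 (chr19:11249675-11266241, minus), all on GRCm38.

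The 150 bases before the start are shown for the divergent pair Cd3g and Cd3d and for Cd8a, which had the largest fold change (RefSeq, GRCm38.p6). Capitals mark a match to TGTGGT (RUNX), CAGGAA (ETS) or CAGGTG (E-box) on either strand.
Cd3g chr9:44980432-44980581, minus: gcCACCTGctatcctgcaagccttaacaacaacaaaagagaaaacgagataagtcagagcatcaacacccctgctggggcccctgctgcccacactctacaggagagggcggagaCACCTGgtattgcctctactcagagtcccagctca
Cd3d chr9:44981636-44981785, plus: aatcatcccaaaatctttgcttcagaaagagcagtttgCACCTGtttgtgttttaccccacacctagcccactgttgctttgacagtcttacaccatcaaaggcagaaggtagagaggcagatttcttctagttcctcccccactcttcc
Cd8a chr6:71373277-71373426, plus: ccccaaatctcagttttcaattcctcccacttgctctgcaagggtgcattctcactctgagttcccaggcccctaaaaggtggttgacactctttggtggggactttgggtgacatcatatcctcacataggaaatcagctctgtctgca
The E-box letters occurred 2 times before Cd3g and 1 time before Cd3d, and in 10.6% of the 32851 promoter windows of the same length. The Cd8a window held none of the 3 motifs. Of the markers, 6 had an entry, of which Cd3e and Cd79a held the ETS letters (16.6% of all windows) and Gzmb the RUNX letters (8.4%). A match is a description of letters and not a binding site.

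Levels are CPM, the deposited gene counts scaled by TMM-adjusted library size. The libraries held 14892524 to 27459962 gene counts, so that 3 counts correspond to 0.108 to 0.207 CPM. A gene was called changed when edgeR's quasi-likelihood test over all 15185 genes gave a Benjamini-Hochberg adjusted p under 0.05 and the log2 fold change was beyond 0.5 in either direction. The SE given with each fold change is its standard error on the log2 scale. The libraries fall into 3 index series by their numbering, with 2, 2 and 1 wild-type mice in series 1, 2 and 3. What a series stands for is not stated. One RGLS4326-treated kidney, mouse 9, stood apart from the other 13 and is described below.

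In PBS-treated Pcy/CD1 kidneys, all 8 tested markers were higher than in wild type. The T-cell genes rose most, from 4.40-fold for Cd3e to 9.72-fold for Cd8a, and Cd79a rose least at 1.62-fold. Across the Pcy/CD1 mice Cd8a did not run with the other T-cell genes (Spearman's rho −0.16 with Cd3e and −0.12 with Cd4). Which cells carried Cd8a was not tested. The background is wide, since 24.6% of the tested genes were called higher and 17.8% lower in this comparison. The median log2 fold change was 2.20 over the 8 markers and 0.01 over all tested genes. For 6 markers, Cd3e, Cd3d, Cd3g, Cd4, Cd8a and Cd79b, every PBS-treated mouse was higher than any wild-type mouse, a separation found in 20.3% of tested genes.

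Cd3e, the CD3 epsilon chain, read 0.472, 0.356, 0.592, 0.484 and 0.723 CPM in wild-type mice 1 to 5, from 6 to 12 counts each. In the PBS group it ranged from 1.53 to 3.27 CPM with a median of 2.35. Every PBS-treated kidney exceeded the highest wild-type kidney. The log2 fold change was 2.14 (SE 0.27, edgeR adjusted p = 6.38e-08).

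Cd3d, the delta chain, read 0.472, 0.535, 0.118, 0.787 and 0.241 CPM in wild type, the lowest from 2 counts. In the PBS group it ranged from 1.56 to 2.84 CPM with a median of 2.05, again without overlap (log2 fold change 2.26, SE 0.31). Cd3g, the gamma chain, read 0.767, 0.713, 1.30, 0.545 and 0.783 CPM in wild type and 2.74 to 4.84 CPM, median 4.13, in the PBS group (log2 fold change 2.30, SE 0.29). The 3 chains of the complex thus had fold changes within 1 SE of each other. Cd4, the helper coreceptor, read 0.531, 0.653, 1.83, 1.45 and 0.602 CPM in wild type and 3.42 to 6.91 CPM, median 4.72, in the PBS group (log2 fold change 2.28, SE 0.29). Wild-type mice 3 and 4, both of series 2, were the highest of the wild types for Cd4, and the log2 fold change was 3.17 within series 1 and 1.65 within series 2.

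Cd8a, the alpha chain of CD8, read 0.59, 1.07, 1.42, 1.70 and 3.73 CPM in wild type. In the PBS group it ranged from 10.8 to 24.9 CPM with a median of 16.6. Its log2 fold change of 3.28 (SE 0.40, edgeR adjusted p = 4.04e-08) was the largest among the markers. Cd8b1, the beta chain and not one of the 9 markers, rose by a log2 fold change of 2.05 (SE 0.36), from a mean of 0.239 to 1.01 CPM. Per kilobase of annotated exon, Cd8a averaged 4.56 ± 1.16 CPM and Cd8b1 0.679 ± 0.213 CPM in the PBS group (SD, n = 12), against 0.468 ± 0.332 and 0.161 ± 0.0858 in wild type (SD, n = 5). The difference between these 2 fold changes was not tested.

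**Figure D1:**
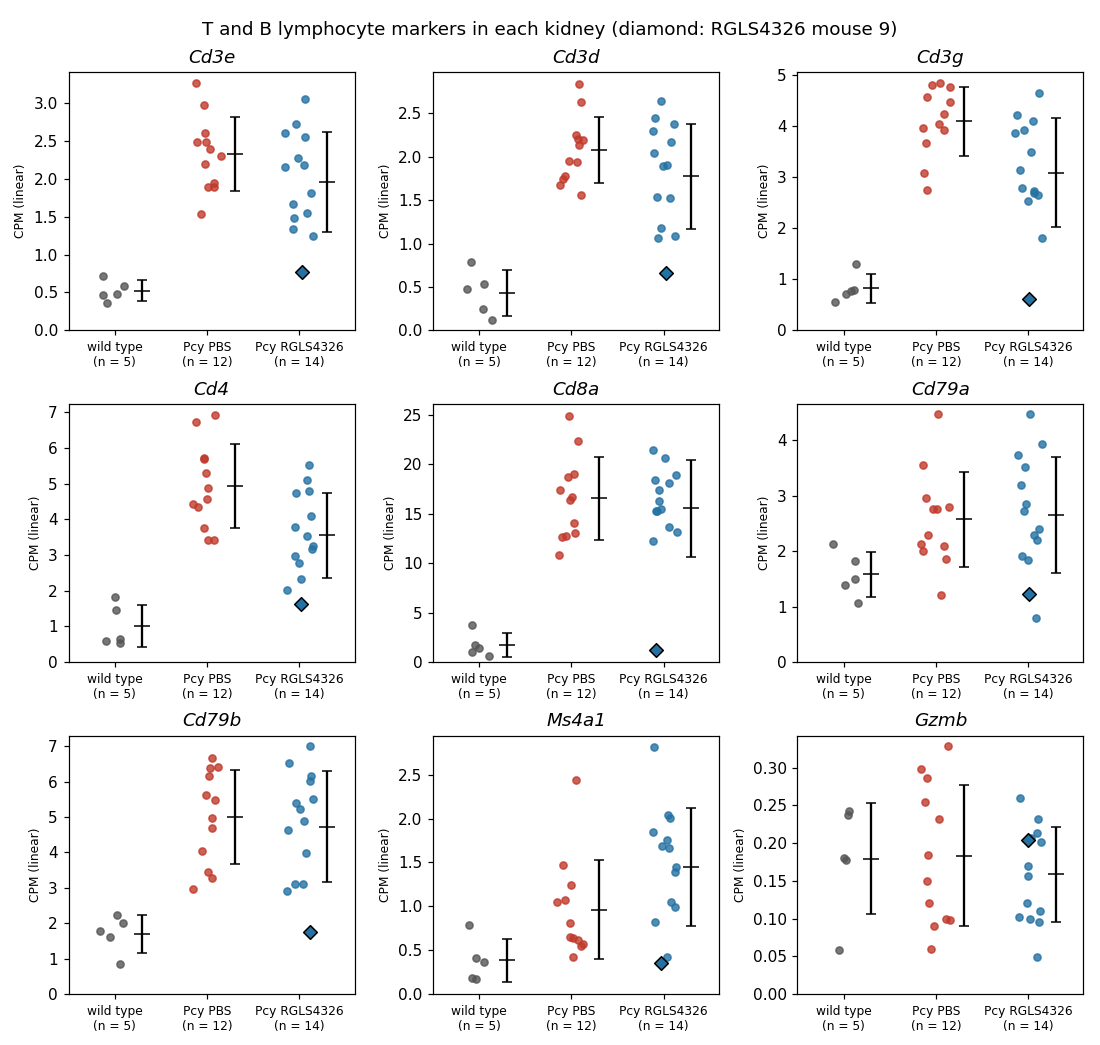
Level of each marker in every kidney, in CPM on a linear axis from 0, with a point for each mouse and the mean and SD beside each group of 5 wild-type, 12 PBS-treated and 14 RGLS4326-treated mice. For Cd8a every PBS-treated mouse lay between 10.8 and 24.9 CPM, above the wild-type maximum of 3.73, and the diamond, RGLS4326-treated mouse 9, lay at 1.28.

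The B-cell genes had lower fold change estimates than the T-cell genes. Cd79a, the alpha chain of the B-cell receptor complex, read 1.83, 1.07, 2.13, 1.39 and 1.51 CPM in wild type and 1.21 to 4.46 CPM, median 2.53, in the PBS group. The groups overlapped, and the log2 fold change was 0.70 (SE 0.29, edgeR adjusted p = 0.0342). This call was lost without PBS-treated mouse 2 (adjusted p = 0.0604) and without wild-type mouse 2, 4 or 5 (adjusted p = 0.0978, 0.072 and 0.0623 by edgeR). Cd79b, the beta chain, read 1.77, 1.60, 2.01, 0.848 and 2.23 CPM in wild type and 2.97 to 6.67 CPM, median 5.23, in the PBS group, with no overlap (log2 fold change 1.56, SE 0.27).

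Ms4a1 read 0.177, 0.178, 0.414, 0.363 and 0.783 CPM in wild type, from 3 to 13 counts, and 0.418 to 2.44 CPM, median 0.727, in the PBS group. It was called higher with overlap between the groups (log2 fold change 1.31, SE 0.47, edgeR adjusted p = 0.0127). Within series 1 the log2 fold change was 2.87, and within series 2 it was 0.77 and not called (edgeR adjusted p = 0.337).

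Gzmb, granzyme B, which cytotoxic lymphocytes release to kill target cells, stayed at the detection limit. It read 0.059, 0.238, 0.178, 0.242 and 0.181 CPM in wild type. The PBS group ranged from 0.0592 to 0.329 CPM and the RGLS4326 group from 0.0496 to 0.259 CPM. The 3 ranges overlapped almost wholly. When the filter was removed and 19698 genes were tested, its log2 fold change was 0.06 (SE 0.36) for PBS against wild type and −0.23 (SE 0.26) for RGLS4326 against PBS, neither called. The first estimate had an interval of 2 SE from −0.66 to 0.78, so a change within these bounds could not be told from none with these mice and counts.

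The increase was not equal across the markers. To compare them within each library, each count was divided by that of Cd3e (log2 of the ratio, 0.5 added to both), a comparison chosen after the data had been seen, with 21 permutation tests adjusted together. Cd8a relative to Cd3e was higher in PBS-treated than in wild-type mice by 1.38 on the log2 scale (2.81 ± 0.56 against 1.42 ± 0.74, exact permutation p = 0.000323, adjusted p = 0.00226). This difference was 1.71, 1.39 and 0.61 within series 1, 2 and 3. Cd79a relative to Cd3e was lower by 1.44 (0.10 ± 0.32 against 1.54 ± 0.34), with no overlap between the groups and the smallest exact permutation p that 12 against 5 mice can give, 0.000162 (adjusted p = 0.00181). Cd3d, Cd3g and Cd4 relative to Cd3e differed by 0.31, 0.22 and 0.30, with adjusted p of 0.558, 0.346 and 0.39 (exact permutation). Cd79b and Ms4a1 relative to Cd3e were lower by 0.53 and 0.82, and neither passed the adjustment (adjusted p = 0.0651 and 0.0857, exact permutation).

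RGLS4326 treatment was compared with PBS in the Pcy/CD1 mice. None of the 8 tested markers was called changed by edgeR. Over all tested genes 0.935% were called higher and 1.22% lower. At an unadjusted p under 0.05 there were 3 markers, Cd3g and Cd4 lower and Ms4a1 higher, against 36.9% of all tested genes. DESeq2 called 0 of the 8 and limma voom called 1, Cd4. No marker separated the 2 groups without overlap, and neither did any other tested gene, with 0% below and 0% above PBS.

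Cd4 ranged from 1.64 to 5.51 CPM, median 3.39, in RGLS4326-treated mice and from 3.42 to 6.91 CPM, median 4.72, in PBS-treated mice. The log2 fold change was −0.48 (SE 0.18, edgeR adjusted p = 0.0575). Cd4 was just outside the threshold, and it crossed it when any 1 of 5 mice was left out (PBS-treated mouse 8 or 12, or RGLS4326-treated mouse 2, 12 or 14), with edgeR adjusted p between 0.036 and 0.0471. Cd3g ranged from 0.614 to 4.65 CPM, median 2.95, in treated mice (log2 fold change −0.41, SE 0.17, edgeR adjusted p = 0.089).

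Cd3e had a median of 1.98 CPM and Cd3d of 1.90 CPM in treated mice, with log2 fold changes of −0.25 (SE 0.16) and −0.22 (SE 0.18). Within the index series the T-cell genes behaved unequally. In series 2 the log2 fold changes were −0.96 for Cd3e, −0.83 for Cd3d, −0.94 for Cd3g and −1.10 for Cd4. In series 3 they were 0.19, −0.02, −0.07 and 0.04. In series 1 they were −0.07, 0.09, −0.26 and −0.47, and no value within a series passed the adjustment (edgeR adjusted p of 0.237 or more). The lowest estimates were those of series 2, which includes mouse 9. Without that mouse the log2 fold changes over all series were −0.19 for Cd3e, −0.15 for Cd3d, −0.32 for Cd3g and −0.42 for Cd4, none of them called. The other 4 treated mice of series 2 were also below all 4 PBS-treated mice of that series for these genes, a separation found in 3.01% of tested genes. The fold changes within series 2 without mouse 9, a setting chosen after the data had been seen, were −0.83, −0.68, −0.71 and −0.99, none of them called, where 0% of tested genes were called lower by edgeR. Cd3e read 1.24 to 1.81 CPM in those treated mice and 1.89 to 3.27 CPM in the PBS-treated mice, and Cd4 read 2.03 to 3.18 and 3.42 to 6.91 CPM. The difference between series was not tested.

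Cd8a ranged from 1.28 to 21.4 CPM, median 15.9, in treated mice, and from 12.3 to 21.4 CPM without mouse 9. Its log2 fold change was −0.09 (SE 0.22) and 0.01 (SE 0.14) without that mouse. Cd79a (0.80 to 4.47 CPM, median 2.56) and Cd79b (1.74 to 6.99 CPM, median 5.05) had log2 fold changes of 0.04 (SE 0.20) and −0.09 (SE 0.17). Intervals of 2 SE ran from −0.53 to 0.35 for Cd8a, from −0.36 to 0.44 for Cd79a and from −0.44 to 0.26 for Cd79b. The estimates of Cd79a within series 1, 2 and 3 were −0.26, −0.46 and 0.76, none of them called, and their difference was not tested.

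Ms4a1 was the marker with the highest estimate in treated mice. It ranged from 0.358 to 2.81 CPM, median 1.56, against 0.418 to 2.44 CPM, median 0.727, in PBS-treated mice. The log2 fold change was 0.60 (SE 0.28, edgeR adjusted p = 0.119). It was positive within each series, at 0.47, 0.45 and 0.90. Relative to Cd3e in the same library, Ms4a1 was higher in treated than in PBS-treated mice by 0.88 on the log2 scale (−0.53 ± 0.56 against −1.41 ± 0.69, permutation p = 0.00173, adjusted p = 0.00908). This difference was positive in all 3 series (0.66, 1.16 and 0.86), and it was 0.92 without mouse 9 (permutation p = 0.0015). Cd4 relative to Cd3e was lower by 0.21 (permutation p = 0.0247, adjusted p = 0.074), and the 5 other ratios had adjusted p of 0.22 or more (permutation).

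**Figure D2:**
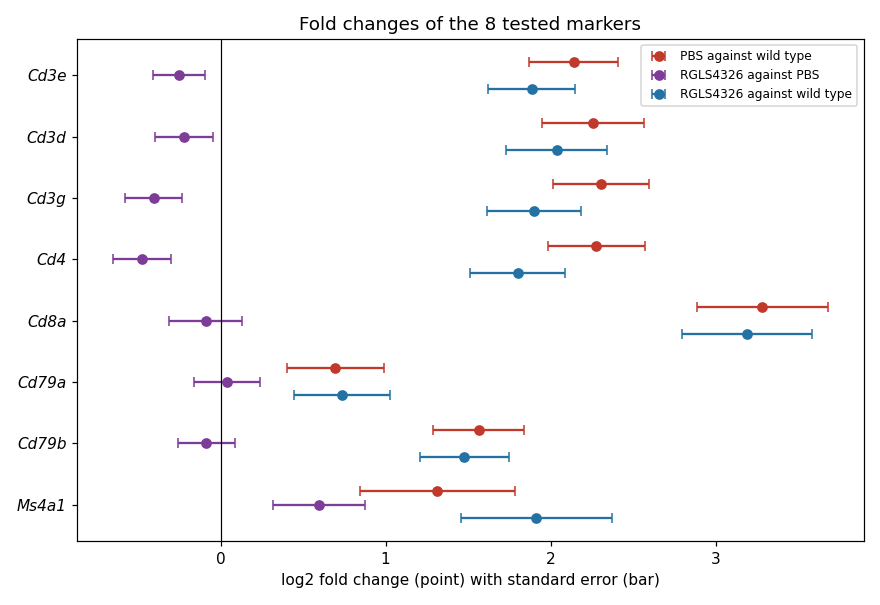
Log2 fold change (points) with its standard error (bars) for the 8 tested markers in PBS against wild type, RGLS4326 against PBS and RGLS4326 against wild type. Estimates against wild type lay between 0.70 and 3.28, and those for RGLS4326 against PBS between −0.48 for Cd4 and 0.60 for Ms4a1.

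In RGLS4326-treated mice all 8 markers stayed called higher than in wild type, where 20.3% of tested genes were called higher and 11.3% lower. This comparison shares its mice with both others. The log2 fold changes were 1.88 for Cd3e, 2.04 for Cd3d, 1.90 for Cd3g, 1.80 for Cd4, 3.19 for Cd8a, 0.74 for Cd79a, 1.48 for Cd79b and 1.91 for Ms4a1. Cd79a was the weakest call, with an edgeR adjusted p of 0.0274, and it was lost without wild-type mouse 2, 4 or 5 (adjusted p = 0.0831, 0.0614 and 0.0525 by edgeR). Within series 2 none of the 8 was called, with 2 wild-type and 5 treated mice (edgeR adjusted p from 0.0602 for Cd8a to 0.979 for Cd79a), and 1.9% of tested genes were called higher in that fit. Without mouse 9, 5 were called higher within series 2, all but Cd4, Cd79a and Ms4a1, against 14.6% of tested genes. The log2 fold changes within series 1 and series 2, mouse 9 included, were 2.70 and 0.55 for Cd4, 0.91 and 0.018 for Cd79a and 3.34 and 1.22 for Ms4a1. Relative to Cd3e, Cd8a was higher than in wild type by 1.45 (exact permutation p = 0.0031, adjusted p = 0.013) and Cd79a lower by 1.15 (exact permutation p = 0.000172, adjusted p = 0.00181). The Cd8a difference was 2.12, 1.47 and 0.35 within series 1, 2 and 3. Only Cd3e was higher in every treated mouse than in every wild-type mouse, against 5.04% of tested genes. Without mouse 9 this held for 6 markers, Cd3e, Cd3d, Cd3g, Cd4, Cd8a and Cd79b, and for 16.2% of tested genes.

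Mouse 9 was the lowest of the 14 treated mice for 7 of the 9 markers. It lay within the wild-type range for all but Cd3e, which read 0.767 CPM against a wild-type maximum of 0.723. Cd8a was at 1.28 CPM where the other treated mice had at least 12.3. Its Lcn2, the kidney injury marker of the study, was at 2.76 CPM, whereas the other treated mice ranged from 126 to 607 CPM and wild type from 0.944 to 11.2 CPM. The summed level of 12 macrophage markers in this mouse was 273 CPM, within the wild-type range of 264 to 303 CPM. Not every list did so. Its sum of 20 B-cell genes was 42.8 CPM, above the wild-type maximum of 39.4 CPM. Its sum of 10 kidney epithelium markers was 50810 CPM, below the wild-type minimum of 54470 CPM and within the range of the treated mice. The marker, Lcn2 and macrophage levels of mouse 9 go against those of the other Pcy/CD1 kidneys. Whether the label of this library holds was not tested, so the lowest treated values and the counts of separated groups depend on it. The part of this mouse's other features in its lymphocyte levels was not tested.

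Relations of Cd3e with 5 other markers, and of Cd79a with Cd79b, were examined between mice. On log2(CPM + 1) values, 12 relations were computed and adjusted together. In treated mice Cd3e and Cd4 had r = 0.94 (n = 14, permutation p = 1e-05, the smallest that 100000 resamples can give, adjusted p = 0.00012) and Spearman's rho of 0.92 (permutation p = 3e-05, adjusted p = 0.00036). Without the 2 mice farthest from the median of Cd3e (2 and 9) r was 0.92, and after centring within index series it was 0.86. In PBS-treated mice Cd3e and Cd4 had r = 0.69 (n = 12, permutation p = 0.0125, adjusted p = 0.0215; rho 0.64, permutation p = 0.0308, adjusted p = 0.0527), and r without the 2 farthest mice was 0.52.

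Cd3e also moved with Cd79a, across the T-cell and B-cell lineages. In PBS-treated mice r was 0.72 (n = 12, permutation p = 0.00947, adjusted p = 0.0189) and rho 0.81 (permutation p = 0.00201, adjusted p = 0.0121), and r was 0.80 within series and 0.67 without mice 5 and 12. In treated mice r was 0.70 (n = 14, permutation p = 0.00508, adjusted p = 0.0176) and rho 0.70 (permutation p = 0.00638, adjusted p = 0.0191), but r fell to 0.40 within series and was 0.63 without mice 2 and 9. Cd79a and Cd79b had r = 0.70 in PBS-treated mice (n = 12, permutation p = 0.00918, adjusted p = 0.0189, rho 0.72 with permutation p = 0.0103 and adjusted p = 0.0247) and 0.69 in treated mice (n = 14, permutation p = 0.00587, adjusted p = 0.0176, rho 0.65 with permutation p = 0.0141 and adjusted p = 0.0283). Without the 2 farthest mice these were 0.51 and 0.48, and within series 0.84 and 0.41.

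Cd3e and Cd3g had r = 0.79 in treated mice (n = 14, permutation p = 0.00065, adjusted p = 0.0039, rho 0.72 with permutation p = 0.00488 and adjusted p = 0.0191), with 0.58 without mice 2 and 9 and 0.63 within series. In PBS-treated mice r was 0.61 (n = 12, permutation p = 0.0339, adjusted p = 0.0508, rho 0.39 with permutation p = 0.209 and adjusted p = 0.279). It was 0.55 within series and 0.25 without mice 5 and 12, so that relation depended in part on those mice.

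Cd8a and Cd3e had no relation that passed the adjustment. In PBS-treated mice r was −0.41 (n = 12, permutation p = 0.187, adjusted p = 0.225, rho −0.44 with permutation p = 0.156 and adjusted p = 0.233). It was −0.32 without mice 5 and 12 and −0.66 after centring within series (permutation p = 0.0169). In treated mice r was 0.55 (n = 14, permutation p = 0.0518, adjusted p = 0.069, rho 0.09 with permutation p = 0.773 and adjusted p = 0.773), 0.51 after centring within series and 0.61 with a pseudocount of 0.1 (permutation p = 0.0494). It was −0.24 without mice 2 and 9, so the positive value rested on those mice. Cd3e and Gzmb had r = 0.28 in PBS-treated mice (n = 12, permutation p = 0.367, adjusted p = 0.401, rho 0.24 with permutation p = 0.454 and adjusted p = 0.545) and 0.10 in treated mice (n = 14, permutation p = 0.735, adjusted p = 0.735, rho 0.14 with permutation p = 0.627 and adjusted p = 0.684), and without the 2 farthest mice 0.41 and 0.15.

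**Figure D3:**
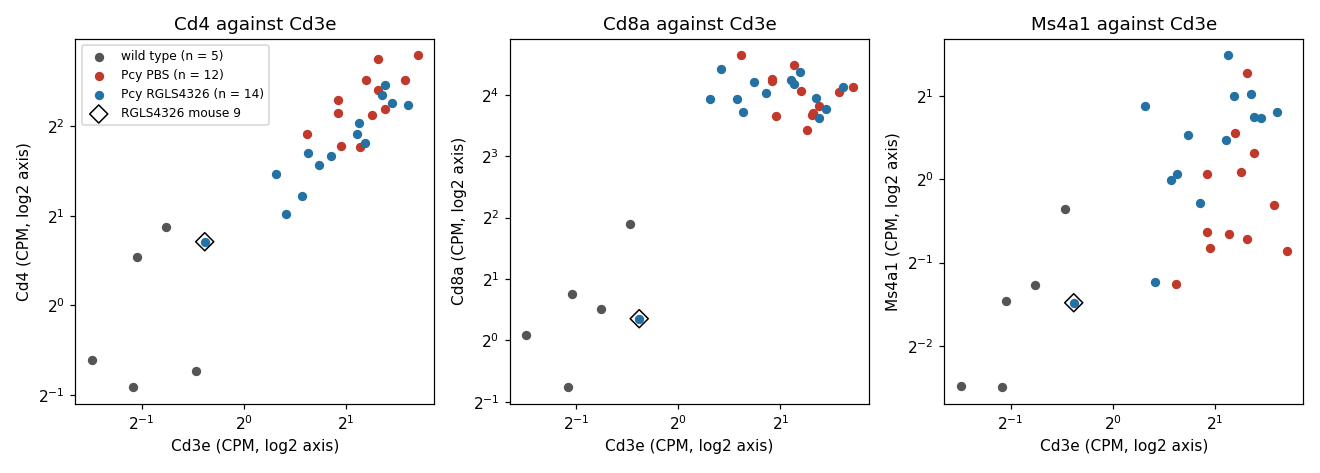
Cd4, Cd8a and Ms4a1 against Cd3e in each of the 31 kidneys, in CPM with both axes on a log2 scale and colours for the 3 groups. Cd4 rose with Cd3e in the treated mice (r = 0.94), Cd8a lay between 10.8 and 24.9 CPM in all Pcy/CD1 mice but mouse 9 whatever their Cd3e, and the mean log2 ratio of Ms4a1 to Cd3e was higher by 0.88 in treated than in PBS-treated mice, with overlap between the groups.

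Over all 31 mice and 14647 genes averaging 0.5 CPM or more, the genes with the pattern most like that of Cd3e were Itgb7 (Spearman's rho 0.94), S100a4 (0.93), Cd6 (0.91), Cd5 (0.90) and Arl5c (0.90). For Cd79a they included Cd22 (0.87), Faim3 (0.86), Siglecg (0.82) and Itgb7 (0.82). CD5 and CD6 are T-cell surface proteins, and CD22 and Siglec-G are B-cell surface proteins. The group differences are part of these values.

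Other lymphocyte genes were counted in lists drawn up by cell type. Over all tested genes the background was 24.6% called higher and 17.8% lower in PBS against wild type, and 0.935% higher and 1.22% lower in RGLS4326 against PBS. Without mouse 9 the latter shares were 0.349% and 0.607%. Of 18 tested genes of T-cell receptor signalling, 17 were called higher in PBS-treated than in wild-type kidneys, with a median log2 fold change of 1.91. Lck, the kinase that starts the receptor signal, averaged 1.85 ± 0.285 CPM in wild type (n = 5) and 8.18 ± 1.42 in the PBS group (SD, n = 12), a log2 fold change of 2.14. Lat, the adaptor downstream of it, rose by 2.44 and the adhesion receptor Cd2 by 2.83. Cd2 was the 1 gene of these 18 called lower in treated mice, against 1.22% of all tested genes (log2 fold change −0.52, SE 0.16, edgeR adjusted p = 0.0344). It averaged 2.23 ± 0.586 CPM with PBS and 1.56 ± 0.444 with RGLS4326 (SD), and without mouse 9 no gene of the list was called lower.

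Of 11 T-cell transcription factor and regulatory T-cell genes, 7 rose and 2 fell in PBS against wild type. Foxp3, the master factor of regulatory T cells, rose from 0.167 ± 0.129 CPM (n = 5) to 2.19 ± 0.539 CPM (SD, n = 12), a log2 fold change of 3.66, and Ctla4, an inhibitory receptor gene, rose by 3.98 from 0.0601 CPM. Tcf7, a factor of naive and memory T cells, rose by 2.20, and the interleukin-2 receptor chain Il2ra by 2.28. Of those that fell, Bcl11b (−1.10) had 15.8 CPM in wild type, where Cd3e had 0.525. Gata3 rose by 1.36 from 13.8 CPM. With RGLS4326 none of the 11 was called by edgeR, and Foxp3 had a log2 fold change of −0.57 (SE 0.23, adjusted p = 0.082).

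Of 15 tested cytotoxic and natural killer cell genes, 12 rose and none fell in PBS against wild type. The chemokine Ccl5 rose by 2.27 and the protease Ctsw by 1.21. Gzma, the granzyme A gene, had a log2 fold change of −0.46 (edgeR adjusted p = 0.131). Prf1 (perforin), Ifng, Fasl and Gzmc did not pass the filter on low counts, as Gzmb did not. Klra2 was the 1 gene of these 15 called with RGLS4326, where 0.935% of all tested genes were called higher, from 1.64 ± 0.475 CPM (n = 12) to 3.01 ± 1.43 CPM (SD, n = 14), a log2 fold change of 0.87 (SE 0.21, edgeR adjusted p = 0.0143). Klra2 belongs to a multigene family. Uniquely mapped reads were counted, and whether reads shared with its relatives affect its level was not tested.

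Of 20 B-cell genes, 17 rose and 1 fell in PBS against wild type, with a median log2 fold change of 1.59. Cd72 rose by 2.47, from 4.02 to 22.3 CPM, and the receptor kinase Btk by 2.10. Cr2, the complement receptor of mature B cells, fell by 0.61 on the log2 scale. With RGLS4326 the list had 1 call of 20, against 0.935% of all tested genes called higher. It was Fcrl5, a receptor related to Fc receptors, which averaged 0.344 ± 0.161 CPM with PBS (n = 12) and 1.29 ± 0.928 CPM with RGLS4326 (SD, n = 14), a log2 fold change of 1.87 (SE 0.36, edgeR adjusted p = 0.00402). Of 7 tested plasma cell genes 2 rose and 1 fell, shares near the background of 24.6% and 17.8%. Sdc1 and Irf4 rose and Igj, the antibody joining chain, fell from 92.8 ± 64.5 CPM (n = 5) to 31.7 ± 15.98 CPM (SD, n = 12). Sdc1 is also made by kidney epithelium and had 21.6 CPM in wild type. Of the 16 plasma cell genes listed, 8 were in the count tables. The immunoglobulin constant genes of this list and of the B-cell list had no row there under the symbols searched, so they could not be tested.

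Of 7 tested lymphoid tissue chemokine and addressin genes, 6 rose in PBS against wild type and none was called with RGLS4326. Cxcl13, which draws B cells into follicles, averaged 0.419 ± 0.281 CPM in wild type (n = 5), 2.55 ± 0.915 with PBS (n = 12) and 3.68 ± 1.79 with RGLS4326 (SD, n = 14). Ltb (lymphotoxin beta) rose by 3.03 and Ccr7 by 2.29. Ccl19, Ccl21a and Ccl21b were listed at 0 in all 31 libraries. Uniquely mapped reads were counted, and whether reads of these genes were left out for that reason was not tested. The 0 is thus not a measure of their absence.

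Pan-leukocyte, macrophage and dendritic cell genes moved in the same comparison. The sum of 7 pan-leukocyte genes ranged from 52.0 to 83.4 CPM in wild type and from 178 to 284 CPM in the PBS group, with 6 of 7 called higher. Of 12 macrophage markers 10 rose and 1 fell, and of 10 dendritic cell markers 6 rose. Of 3 tested neutrophil markers 1 rose, Csf3r, against 24.6% of all tested genes. S100a8 and S100a9 had log2 fold changes of −0.29 and 0.01, neither called. Both tested red blood cell markers, Alas2 and Slc4a1, fell. The summed level of their list was 46.4 to 63.6 CPM in wild type and 16.6 to 33.7 CPM in the PBS group. Most of it was Slc4a1, with means of 47.4 and 24.4 CPM, and which cells carried it was not tested. Hba-a1, Hba-a2, Hbb-b2 and Hbb-bt were listed at 0 in all libraries, and the part of counting only uniquely mapped reads in this was not tested. Of 10 kidney epithelium markers 6 fell and 1 rose. With RGLS4326 against PBS, edgeR called 0 of the leukocyte and red blood cell markers of this paragraph, and without mouse 9 it called 1 of them, the macrophage gene Emr1 (log2 fold change 0.53, adjusted p = 0.0329). The kidney epithelium marker Aqp2 fell by 0.56 on the log2 scale. The part of these cell types in the marker differences was not tested.

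**Figure D4:**
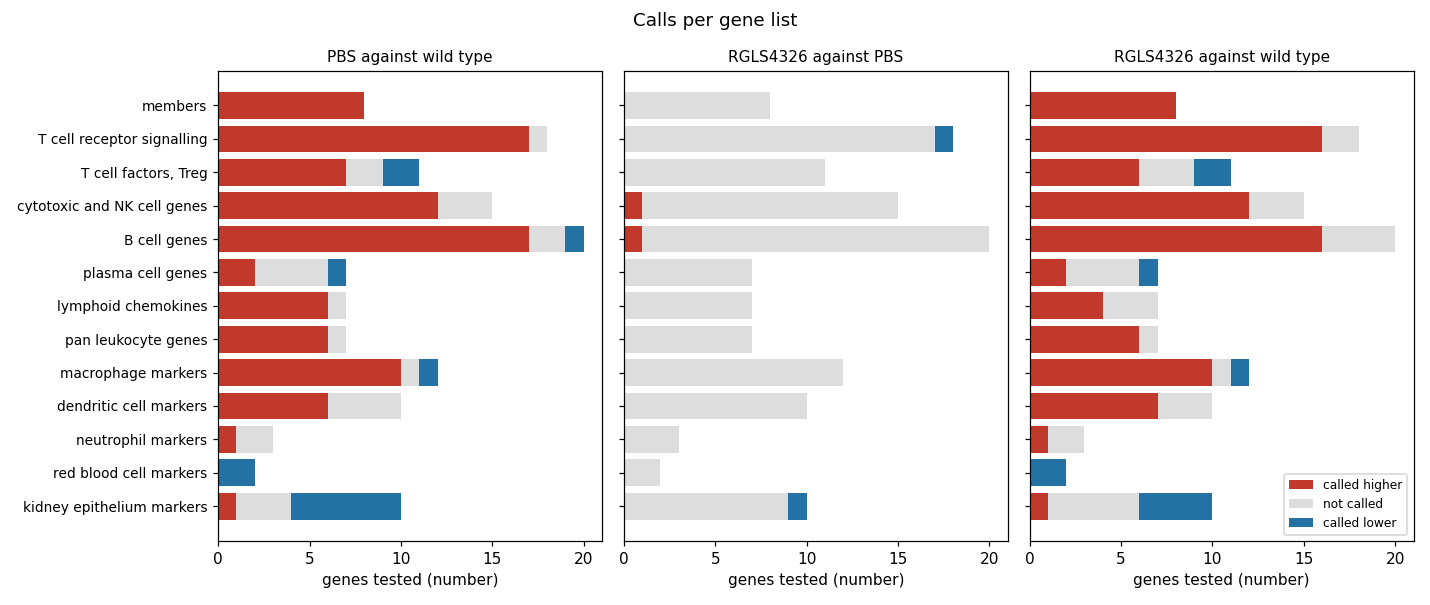
Number of tested genes called higher (red), called lower (blue) or not called (grey) in the 9 markers and 12 other gene lists for each of the 3 comparisons. Against wild type most leukocyte lists were called higher, with 17 of 18 T-cell receptor signalling genes in the PBS group, whereas RGLS4326 against PBS gave at most 1 call in any list.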

How the data were processed

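Whole-kidney RNA from 31 mice was made into polyA libraries and sequenced by the authors. The authors trimmed reads with Trim Galore, aligned them with STAR to GRCm38 and counted uniquely mapped reads per gene with HTSeq 0.6.1, and deposited raw counts without normalization. The annotation and strand setting are not given in the sources used here. HTSeq's rows that name no gene (26.9 to 31.1% of the reads) were left out.

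Genes passing filterByExpr were kept, scaled by TMM and fitted by edgeR 4.0.16 in R 4.3.3 with 1 coefficient per group over all 31 mice. Calls used the study's thresholds, an adjusted p (Benjamini-Hochberg) under 0.05 and a log2 fold change beyond 0.5 in size. The SE was approximated by the size of the log2 fold change divided by the root of the F statistic. DESeq2 1.42.0 and limma 3.58.1 served as alternatives, beside other filters, scalings, index series, a replicate block and leaving out each mouse. The edgeR, correlation and permutation steps were tested on simulated data. Permutation tests used Python 3.11.15 with numpy and 100000 resamples, or all regroupings where a group had fewer than 10 mice. Each library is labelled as its own replicate and was taken as a separate mouse. For RNA-seq of this model the study's figure legend gives 4 PBS-treated and 4 RGLS4326-treated mice. Its wild-type group is also smaller than the 5 libraries used here. How those numbers relate to the 12, 14 and 5 libraries is not stated. The counting limits quoted cover counting error only. Wild-type libraries 3 and 4 were the most alike pair, with a chi-square of 2.56 per gene, and were counted separately.

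Beside the 9 markers, genes were named by rule: up to 3 per list with the smallest p in PBS against wild type and in RGLS4326 against PBS, and the 5 most like Cd3e and Cd79a. Genes at the ends of a list, Cd8b1, Foxp3, Ctla4, Bcl11b, Gzma and Cr2 among them, were named after their values were seen. The same holds for the B-cell factors Ebf1, Pou2af1, Pax5 and Spib. Of 155 listed genes, 144 were in the files. The markers and lists were chosen with earlier results of these data known. Some genes that the rule names are not reported here. Index series were read from the libraries' numbering.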

Additional observations from a re-analysis of the deposited data

How the results depend on the processing

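In PBS against wild type, 6 markers were called higher under every alternative run, the exceptions being Cd79a and Ms4a1. Cd79a lost its call with limma voom (adjusted p = 0.0811) and in index series 2 (0.368), beside the mice named above, and Ms4a1 in series 2. In RGLS4326 against wild type the number of markers called higher was 0 in index series 2 alone and 5 there without mouse 9, and Cd79a also lost its call with limma voom and in series 1. The number called lower in RGLS4326 against PBS was 2 with total counts only (Cd3g and Cd4), 1 with limma voom (Cd4) and 0 to 1 when single mice were left out. With total counts only, the median log2 fold change of all genes was 0.38 for PBS against wild type, −0.12 for RGLS4326 against PBS and 0.26 for RGLS4326 against wild type, where TMM gave 0.010, −0.0043 and 0.0037, so the 2 calls it adds include a shift of all genes.

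Uncalled differences between RGLS4326 and PBS changed sign for Cd3e (0.19), Cd4 (0.039) and Cd79b (0.17) in series 3, for Cd3d (0.095) and Cd8a (0.31) in series 1 and for Cd79a with total counts only (−0.074), limma voom (−0.0087), series 1 (−0.26), series 2 (−0.46, or −0.35 without mouse 9) and the replicate block (−0.13). With single mice left out Cd8a ranged from −0.14 to 0.0070 and Cd79a from −0.034 to 0.14. The relation of Cd3e with Cd8a in treated mice turned to r = −0.24 without the 2 farthest mice, and that of Cd3e with Gzmb to −0.12 within series. Averaged over series 1 and 2, leaving out series 3 with its 1 wild-type mouse, the uncalled ratios to Cd3e turned to −0.011 for Cd3d in PBS against wild type and to −0.12 for Cd3g and −0.20 for Cd4 in RGLS4326 against wild type. In series 3 they were 1.45, 0.52 and 1.16. The cause was not tested.

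Same-numbered mice are different animals and share only a number (mean correlation of their deviations −0.08 over 12 pairs of PBS with RGLS4326). The replicate block took the calls over all genes from 327 to 43 in RGLS4326 against PBS and changed no marker's call. Depth limits Gzmb, Ms4a1 and the CD3 genes in wild type, which rest on 1 to 22 counts per library.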

Other observations

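The genes whose pattern over the 31 mice was most like that of Cd8a, looked up after the data had been seen, were not lymphocyte markers of the lists used here. They were Emb (Spearman's rho 0.82, means of 23.7, 35.1 and 34.3 CPM in wild type, PBS and RGLS4326), Gnpda1 (0.78, 42.8, 92.2 and 99.9 CPM), 4933402C06Rik (0.77), Gm19277 (0.76) and Slc9a2 (0.75). Across the 26 Pcy/CD1 mice, as a description, the rho of Cd8a was −0.16 with Cd3e, −0.20 with Cd3d, −0.17 with Cd3g and −0.12 with Cd4, while those 4 genes had rho of 0.63 to 0.83 with each other. Ms4a1 had rho of 0.70 with Cd79a and 0.32 with Cd3e in the same mice.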
